A study of Rattus norvegicus with 4 samples.

Results

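Liver sinusoidal endothelial cells are described here through 10 marker genes, Lyve1, Stab2, Fcgr2b, Kdr, Flt4, Tek, Tie1, Cdh5, Eng and Gpr182. They are the rows of the deposited count table that carry these symbols, 1 row each, and they make up 10 of its 32545 listed genes. The members were chosen by known roles and by their counts in these libraries, which differed between libraries of the same group, so those levels are a description and are not tested.

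RNA from rat liver was sequenced in 4 libraries. The sleep restriction group (SR) holds 2 libraries from rats under forced activity plus sleep restriction, and the forced activity control group (FA) holds 2 from rats under forced activity only, so all 4 share the forced activity. Strain, age, sex and the length of the restriction are not given in the sources used here, and nothing says that the 2 libraries of a group came from separate animals, so the p-values measure the spread between libraries, which may be technical. The comparison asks which liver transcripts differ when sleep restriction is added to forced activity.

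Sinusoidal endothelial cells line the capillaries of the liver. Their pores and the lack of a continuous basement membrane let plasma reach the hepatocytes, and their scavenger receptors clear hyaluronan, modified proteins and small immune complexes from the blood. They respond to growth factors made by neighbouring cells, such as VEGF from hepatocytes, and send Wnt, BMP and growth factor signals back to them. Some of the markers are shared with other cells: Lyve1 marks lymphatic vessels, Fcgr2b is also found on B cells and macrophages, and Kdr, Tek, Tie1, Cdh5 and Eng are found in blood vessels throughout the body.

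The deposited counts summed to 515682.4 and 520275.6 in SR 1 and 2, and to 508202.6 and 520204.5 in FA 1 and 2. These near-equal totals do not mean equal sequencing depth: 14105 and 10952 genes were above 0 in SR 1 and 2, and 14008 and 11943 in FA 1 and 2, so that in both groups the replicate 1 library detected more genes. The hepatocyte marker albumin (Alb) held 12.8% and 13.6% of the counts in SR 1 and 2 and 11.6% and 13.6% in FA 1 and 2, so the liver label matches its defining marker. Levels are in CPM, the count as a share of the TMM-scaled library total, and their errors are SDs over the 2 libraries of a group.

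The 10 markers together held 327.7 and 178 counts in SR 1 and 2, and 122.6 and 388.3 counts in FA 1 and 2. Scaled, this was 635 and 345 CPM in SR 1 and 2, and 247 and 721 CPM in FA 1 and 2. FA 2 and SR 1 were thus high, SR 2 was lower and FA 1 was lowest, and the groups overlapped. In bulk liver, fewer endothelial cells and less marker RNA per cell cannot be told apart.

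**Figure D1:**
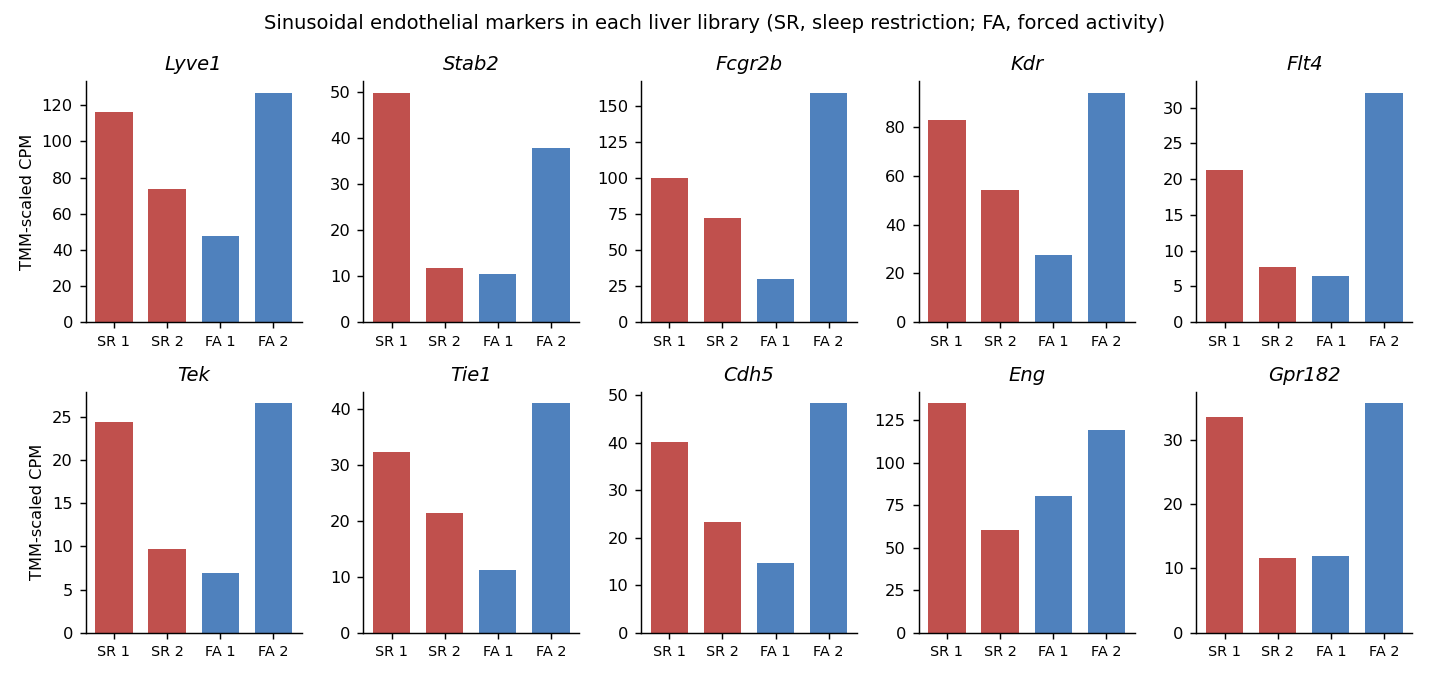
Each panel shows 1 marker, with bars from 0 for its TMM-scaled CPM in the 2 sleep restriction libraries (SR, red) and the 2 forced activity libraries (FA, blue). In all 10 panels SR 1 and FA 2 are the tallest bars, and Fcgr2b spans the widest range within FA, with 30.1 CPM in FA 1 and 159 CPM in FA 2.

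The first group is the scavenger and Fc receptors. Lyve1, a hyaluronan receptor related to CD44 (ENSRNOG00000026902.4, rn6 chromosome 1 from 175663266 to 175676699), had 60 and 38 counts in SR 1 and 2, and 23.7 and 68.4 counts in FA 1 and 2. Both SR libraries lay between the FA libraries. Its mean was 95.0 ± 30.1 CPM under sleep restriction and 87.4 ± 56.0 CPM under forced activity (SD, 2 libraries each), a log2 change of 0.10 (SE 0.40).

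Stab2, the receptor that removes hyaluronan from the circulation (ENSRNOG00000038948.3, chromosome 7 from 27369853 to 27552078), had 25.7 and 6 counts in SR 1 and 2, and 5.2 and 20.4 counts in FA 1 and 2. SR 1 was the highest library and FA 1 the lowest, and FA 2 lay far above SR 2. Stab2 averaged 30.7 ± 27.0 CPM under sleep restriction and 24.2 ± 19.4 CPM under forced activity, with a log2 change of 0.32 (SE 0.64), the largest positive value of the 10. The inhibitory IgG receptor Fcgr2b (ENSRNOG00000046452.3, chromosome 13 from 89327794 to 89433815) had 51.4 and 37 counts in SR 1 and 2, and 14.9 and 85.6 counts in FA 1 and 2. As with Lyve1, both SR libraries fell between the FA libraries, which differed by a factor of 5.29 after scaling. The log2 change was -0.17 (SE 0.68). The listed interval of Fcgr2b overlaps that of Fcgr3a, another Fc receptor, which held 4.8 and 1 counts in SR 1 and 2, and 4 and 4.4 counts in FA 1 and 2, and how reads were divided between them is uncertain.

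Among other Fc receptor genes and partners, 3 of 7 were tested and all 3 had negative log2 changes, none called, with a median of -0.35. Fcgrt, which recycles IgG and albumin, had 140 and 89.2 CPM in SR 1 and 2, and 146 and 148 CPM in FA 1 and 2, and Fcer1g, the signalling chain of activating Fc receptors, had 24.6 and 11.6 CPM in SR 1 and 2, and 24.6 and 27.7 CPM in FA 1 and 2. Their libraries thus did not follow the order seen for Fcgr2b, because FA 1 was not low. Of the further genes for hyaluronan, the cell surface hyaluronidase Tmem2 was the only one tested, at 43.8 and 42.7 CPM in SR 1 and 2, and 27.4 and 69.5 CPM in FA 1 and 2, with a log2 change of -0.16. Stab1, the close relative of Stab2, lay under the filter with 10.7 and 4 counts in SR 1 and 2, and 6.7 and 10.1 counts in FA 1 and 2, as did the lysosomal hyaluronidase Hyal1 with 11.2 and 8 counts in SR 1 and 2, and 5.6 and 3.3 counts in FA 1 and 2.

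RefSeq holds a promoter window for 7 of the 10 markers in its GRCr8 build, covering 250 bases before to 50 bases after the gene start. The windows of Lyve1, Kdr and Gpr182 are shown as examples of a scavenger receptor, a growth factor receptor and a chemokine receptor that were high in the same libraries. Each is written 5′ to 3′ along its gene, with capitals marking the letters of the motifs searched.
Lyve1: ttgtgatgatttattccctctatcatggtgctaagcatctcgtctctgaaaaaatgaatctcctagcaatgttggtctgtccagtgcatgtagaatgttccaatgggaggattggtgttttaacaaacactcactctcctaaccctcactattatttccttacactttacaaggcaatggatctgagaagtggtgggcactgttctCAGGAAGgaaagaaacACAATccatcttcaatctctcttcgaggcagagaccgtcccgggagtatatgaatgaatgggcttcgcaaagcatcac
Kdr: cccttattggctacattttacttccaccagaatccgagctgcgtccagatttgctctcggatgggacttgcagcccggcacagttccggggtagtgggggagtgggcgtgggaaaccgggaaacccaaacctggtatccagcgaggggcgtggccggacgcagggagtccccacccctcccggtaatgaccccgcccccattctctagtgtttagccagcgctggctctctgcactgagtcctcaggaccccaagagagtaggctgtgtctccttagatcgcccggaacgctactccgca
Gpr182: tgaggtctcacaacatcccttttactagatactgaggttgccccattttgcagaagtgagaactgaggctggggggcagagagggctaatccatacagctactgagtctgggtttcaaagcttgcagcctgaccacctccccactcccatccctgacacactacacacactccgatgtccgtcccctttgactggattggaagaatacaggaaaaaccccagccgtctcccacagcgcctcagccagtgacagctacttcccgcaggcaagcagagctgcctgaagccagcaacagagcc
They lie at chr1:174410928-174411227 on the minus strand for Lyve1, chr14:32571813-32572112 on the plus strand for Kdr, and chr7:65474061-65474360 on the minus strand for Gpr182, all in GRCr8, a build other than the rn6 of the count table. The ETS letters CCGGAAG and CAGGAAG, the GATA letters AGATAA and the SOX letters ACAAT were searched on both strands. In the 7 windows CAGGAAG and ACAAT were each found in Lyve1 alone, starting at bases 207 and 223 of the window without overlap, and the other motifs in none. Among all 33469 promoter windows CAGGAAG was held by 12.5%, ACAAT by 33.7%, CCGGAAG by 8.75% and AGATAA by 11.6%. Such a match describes the letters only. The windows differed in base composition, from 43.3% G and C in Lyve1 to 75.0% in Flt4, against a median of 51.7% over all windows.

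The VEGF receptors showed the order of libraries of Lyve1 and Fcgr2b. Kdr, the main signalling receptor for VEGF-A (ENSRNOG00000046829.2, chromosome 14 from 34727623 to 34787183), had 42.7 and 28 counts in SR 1 and 2, and 13.7 and 50.7 counts in FA 1 and 2. Its mean was 68.5 ± 20.1 CPM under sleep restriction and 60.9 ± 47.0 CPM under forced activity, a log2 change of 0.13 (SE 0.47), with both SR libraries between the FA libraries. Flt4, the receptor for VEGF-C and VEGF-D (ENSRNOG00000002511.8, chromosome 10 from 35078726 to 35121599), had 11 and 4 counts in SR 1 and 2, and 3.2 and 17.3 counts in FA 1 and 2. FA 2 exceeded FA 1 by a factor of 4.98 and SR 1 exceeded SR 2 by 2.75 after scaling. At such counts the precision is low: exact 95% Poisson intervals, which cover counting error only, ran from 1.09 to 10.2 for the 4 counts of SR 2 and from 0.707 to 9.07 for the 3.2 counts of FA 1. The log2 change of Flt4 was -0.33 (SE 0.58), the largest negative value of the 10.

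Of the VEGF ligands and further receptors, Vegfa and Flt1 were tested and neither was called. Vegfa, the ligand made largely by hepatocytes, had 216 and 316 CPM in SR 1 and 2, and 243 and 398 CPM in FA 1 and 2, a log2 change of -0.27 (SE 0.27), with the higher value in the replicate 2 library of each group. Its order thus differed from that of its receptors. Flt1, which binds VEGF-A tightly and signals weakly, had 27.9 and 19.4 CPM in SR 1 and 2, and 8.68 and 30.1 CPM in FA 1 and 2, the order of Kdr and Flt4. The co-receptor Nrp1, under the filter, had 9.9 and 8 counts in SR 1 and 2, and 3.9 and 10.4 counts in FA 1 and 2.

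Tek and Tie1, the receptor pair of the angiopoietin system, followed. Tek, which binds the angiopoietins (ENSRNOG00000008587.6, chromosome 5 from 113725717 to 113852799), had 12.6 and 5 counts in SR 1 and 2, and 3.4 and 14.3 counts in FA 1 and 2. Tie1, its partner receptor (ENSRNOG00000020173.6, chromosome 5 from 137294532 to 137321101), had 16.7 and 11 counts in SR 1 and 2, and 5.6 and 22.1 counts in FA 1 and 2. FA 2 was highest and FA 1 lowest for both, and the log2 changes were 0.07 (SE 0.54) for Tek and 0.0032 (SE 0.43) for Tie1. None of the 5 genes listed for angiopoietins and their partners passed the filter. Ptprb, the phosphatase that switches Tek off, had 17.2 and 4 counts in SR 1 and 2, and 4.2 and 8.3 counts in FA 1 and 2, while the ligands were nearly undetected, with Angpt2 at 0.4 and 1 counts in SR 1 and 2 and at 0 in both FA libraries.

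Cdh5, or VE-cadherin, which holds endothelial cells together (ENSRNOG00000013324.6, chromosome 19 from 1023683 to 1074365), had 20.7 and 12 counts in SR 1 and 2, and 7.3 and 26 counts in FA 1 and 2. Both SR libraries lay between the FA libraries, with means of 31.7 ± 11.9 CPM under sleep restriction and 31.5 ± 23.7 CPM under forced activity and a log2 change of 0.0035 (SE 0.45). Of its junction partners 6 of 10 were tested, 5 with positive log2 changes, with a median of 0.22 and none called. Jam2, chosen after its values were seen, was the only tested partner in which FA 2 and SR 1 both lay above the other libraries. Jam2 reached 10 counts in FA 2 and SR 1 only, so it passed the gene filter through those libraries. F11r, a junctional adhesion molecule that epithelial cells also use, had 129 and 165 CPM in SR 1 and 2, and 135 and 124 CPM in FA 1 and 2. Ctnnd1, a catenin that binds cadherins in many cell types, had 109 and 93.1 CPM in SR 1 and 2, and 89.6 and 78.2 CPM in FA 1 and 2.

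Eng, or endoglin, a co-receptor for ligands of the TGF-beta family (ENSRNOG00000050190.3, chromosome 3 from 11679530 to 11717485), had 69.6 and 31 counts in SR 1 and 2, and 39.7 and 64.3 counts in FA 1 and 2. Unlike in 8 other markers, SR 2 and not FA 1 was the lowest library, and FA 2 exceeded FA 1 by a factor of only 1.49. The means were 97.5 ± 52.9 CPM under sleep restriction and 99.8 ± 27.8 CPM under forced activity, and the log2 change was -0.03 (SE 0.35). Of the genes around endoglin 7 were tested, 4 with positive and 3 with negative log2 changes, with a median of 0.18 and none called. Gdf2, which encodes the BMP ligand of endoglin, had 61.1 and 46.6 CPM in SR 1 and 2, and 35.9 and 57.4 CPM in FA 1 and 2, with SR 1 and FA 2 high, as in the markers. Tgfbr2, a TGF-beta receptor, had 69.6 and 31.0 CPM in SR 1 and 2, and 52.9 and 20.1 CPM in FA 1 and 2, and Hamp, the iron hormone of hepatocytes that BMP signals induce, had 105 and 95.1 CPM in SR 1 and 2, and 113 and 86.9 CPM in FA 1 and 2.

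Gpr182, an atypical chemokine receptor of sinusoidal endothelium (ENSRNOG00000004311.4, chromosome 7 from 71045543 to 71048383), had 17.3 and 6 counts in SR 1 and 2, and 5.9 and 19.2 counts in FA 1 and 2. The high and the low library of each group were nearly alike, at 33.5 and 11.6 CPM in SR 1 and 2, and 11.9 and 35.7 CPM in FA 1 and 2. Its log2 change was -0.10 (SE 0.48). Its listed interval overlaps that of Rdh16, a hepatic retinol dehydrogenase, and how reads were divided between them is uncertain. Rdh16 held 102.7 and 114 counts in SR 1 and 2, and 117.8 and 92.5 counts in FA 1 and 2. These were more than those of Gpr182 in every library and ran in another order. Whether reads of Rdh16 add to the Gpr182 values was not tested.

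None of the 10 markers was called between sleep restriction and forced activity. The test was edgeR's quasi-likelihood test over the 4986 genes that passed its filter, all 10 markers among them, with a call at a Benjamini-Hochberg adjusted p under 0.05, and each marker had an adjusted p of 0.999. The same test called 0.0201% of all tested genes, which is 1 gene. At an unadjusted p under 0.05 there were 0 markers against 209 of all tested genes, and DESeq2 and limma-voom also called 0 markers. The fitted log2 changes, which are shrunken towards 0 by a prior count of 2, were positive for 6 markers and negative for 4 and ran from -0.33 to 0.32, with a median of 0.0034, against 0.0031 over all tested genes. A p that misses the threshold does not show that the markers were alike in the groups.

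That median depended on single libraries. It was -0.51 without FA 1, 0.97 without FA 2, -0.50 without SR 1 and 0.38 without SR 2. Within replicate numbers the markers moved in opposite directions: in the replicate 1 libraries, SR 1 over FA 1, all 10 were higher under sleep restriction, by 0.72 for Eng to 1.90 for Stab2 on the log2 scale. In the replicate 2 libraries, SR 2 over FA 2, all 10 were lower, from -0.75 for Kdr to -1.63 for Flt4. The medians were 1.27 and -1.03 in these pairs, against 0.0042 and 0.0085 over all tested genes. In all 10 markers FA 2 and SR 1 lay above the other libraries, the pattern for which the markers were listed. The opposite signs follow from that pattern and add nothing to it. A pair holds 1 library of each group and gives no test, and since the replicate 1 libraries also detected more genes, replicate number and depth cannot be told apart.

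**Figure D2:**
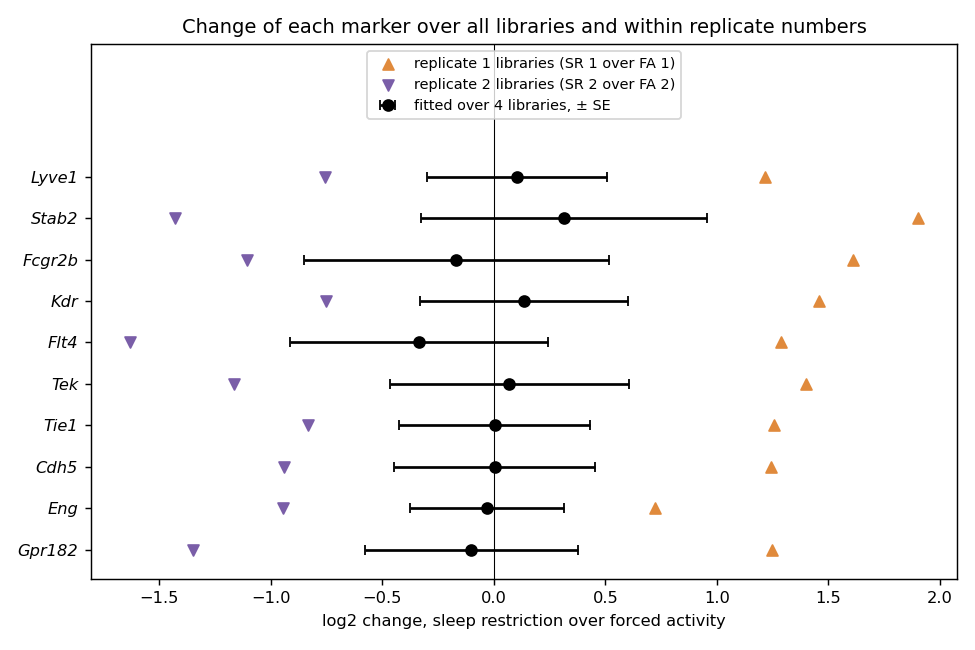
For each marker the log2 change of sleep restriction over forced activity is plotted as fitted over 4 libraries with its SE (black), in the replicate 1 libraries (upward triangles) and in the replicate 2 libraries (downward triangles). All 10 fitted values lie between -0.33 and 0.32, while the replicate 1 values lie to the right of 0 and the replicate 2 values to the left. The opposite sides follow from FA 2 and SR 1 being the high libraries in all 10 markers.

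Differences within a group exceeded those between groups. Groups did not overlap for 0 of the 10 markers, against 32.4% of all tested genes. For all 10 markers the difference between the group means of log2 CPM was smaller than the difference within either group, which held for 43.6% of all tested genes. FA 2 and SR 1 both lay above the other 2 libraries for all 10 markers and for 12.2% of all tested genes, and FA 1 was the lowest library for 8 markers and for 22.5% of all tested genes. These counts describe the pattern for which the markers were listed, and nothing further is read from them.

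**Figure D3:**
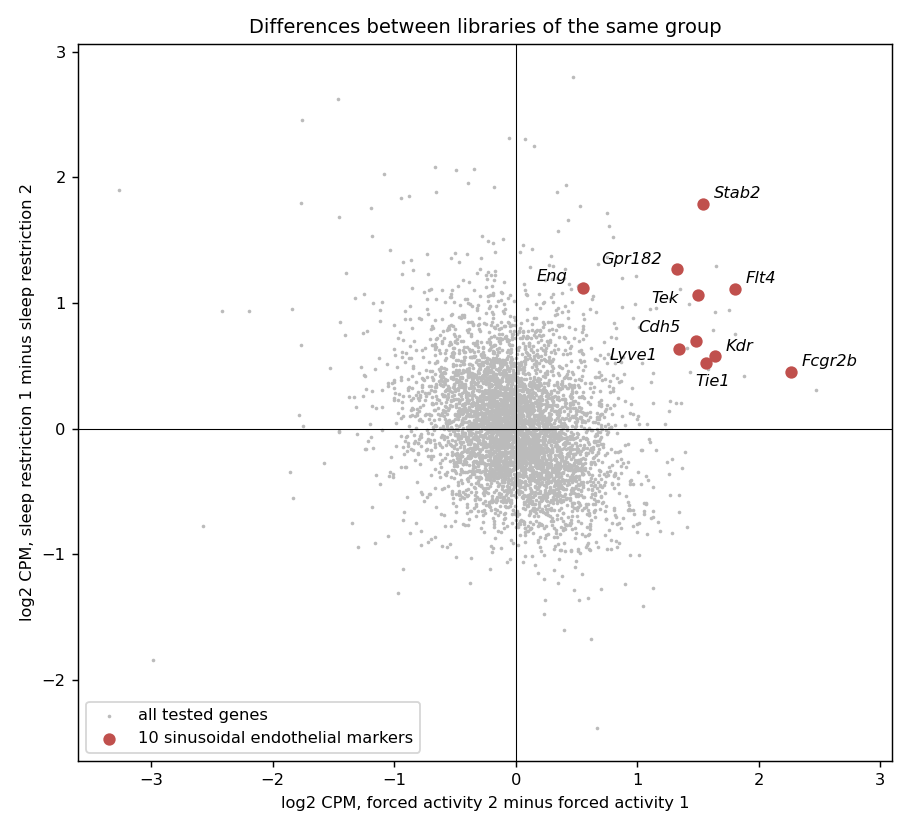
Each of the 4986 tested genes is a point, with the log2 CPM difference between FA 2 and FA 1 on the horizontal axis and that between SR 1 and SR 2 on the vertical axis. The 10 markers (red) all lie in the upper right corner, with Fcgr2b farthest to the right at 2.26 and Stab2 highest at 1.79, while the grey cloud of all tested genes is centred near 0.

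The markers differed in how far they spread. FA 2 exceeded FA 1 by factors of 1.49 for Eng to 5.29 for Fcgr2b, and by at least 2-fold for 9 markers, against 2.09% of all tested genes. SR 1 exceeded SR 2 by factors of 1.39 for Fcgr2b to 4.28 for Stab2, and by at least 2-fold for 5 markers, against 3.99% of all tested genes. Both held for 4 markers, Stab2, Flt4, Tek and Gpr182, and for 0.301% of all tested genes. These 4 were also the markers with at least 10 counts in FA 2 and SR 1 only, so they passed the gene filter through those libraries. Exact 95% Poisson intervals of the counts were apart between FA 1 and FA 2 for 7 markers and between SR 1 and SR 2 for 2, Stab2 and Eng. For Tek and Gpr182 the intervals overlapped in both groups, which does not show that their differences lay within counting error. The intervals treat the deposited values as plain counts, and the markers were listed with these values known, so the intervals test nothing.

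The share of each marker in the summed marker counts also varied between libraries. Lyve1 took 18.3% and 21.3% in SR 1 and 2, and 19.3% and 17.6% in FA 1 and 2. Stab2 took 7.84% and 3.37% in SR 1 and 2, and 4.24% and 5.25% in FA 1 and 2, highest in SR 1. Flt4 took 3.36% and 2.25% in SR 1 and 2, and 2.61% and 4.46% in FA 1 and 2. Eng took 21.2% (exact 95% binomial interval 17.0 to 26.2) and 17.4% (12.2 to 23.8) in SR 1 and 2, and 32.4% (24.4 to 41.6) and 16.6% (12.9 to 20.6) in FA 1 and 2, so that its share was highest in the library with the fewest marker counts. Fcgr2b took 15.7% (11.8 to 19.9) and 20.8% (15.1 to 27.5) in SR 1 and 2, and 12.2% (6.99 to 19.3) and 22.0% (18.1 to 26.6) in FA 1 and 2, lowest in FA 1. Intervals are printed for Eng and Fcgr2b only. They treat the deposited values, rounded, as plain counts, and the markers were listed with these values known. The intervals therefore test nothing, whether or not they overlap.

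Among the tested genes in a list of other endothelial genes, FA 2 and SR 1 were also mostly the high libraries. Of 42 symbols listed 40 had a row and 14 were tested, 6 with positive and 8 with negative log2 changes, with a median of -0.04 and none called. FA 2 and SR 1 both lay above the other libraries for 11 of the 14, against 12.2% of all tested genes. Gata4, S1pr1 and Sparcl1 were the exceptions, named after their values were seen. The gene filter asks for about 10 counts in 2 libraries, so the 11 is partly set by the filter. Dnase1l3, Clec14a, Oit3 and Nr2f2 reached 10 counts in SR 1 and FA 2 only. Ehd3, an endocytic recycling protein, had 104 and 79.5 CPM in SR 1 and 2, and 38.5 and 87.7 CPM in FA 1 and 2. Adgrf5, an adhesion G-protein-coupled receptor, had 87.4 and 50.4 CPM in SR 1 and 2, and 29.1 and 111 CPM in FA 1 and 2, and Tspan7, a tetraspanin, had 41.8 and 23 counts in SR 1 and 2, and 22.6 and 51.6 counts in FA 1 and 2. The 26 genes under the filter summed to 134 and 76 counts in SR 1 and 2, and to 67.7 and 120.3 counts in FA 1 and 2. This sum was again high in SR 1 and FA 2, but single genes at these low counts differed. Clec4g, Cd36, Egfl7, Emcn, Plvap, Robo4, Cldn5, Cd34, Sox18, Adgrl4, Rasip1, Thbd and Cav1 did not have SR 1 and FA 2 highest.

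Markers of other liver cells moved along in part. The Kupffer cell and macrophage markers had a median log2 change of 0.18 between the groups. They summed to 1121 and 790 CPM in SR 1 and 2, and to 714 and 951 CPM in FA 1 and 2. Of their 12 tested members 10 had FA 2 and SR 1 above the other libraries, against 12.2% of all tested genes. Their median differences were 0.38 for FA 2 over FA 1 and 0.54 for SR 1 over SR 2 on the log2 scale, against 1.52 and 0.88 for the endothelial markers. The endothelial markers were listed for such differences, and Stab2, Flt4, Tek and Gpr182 passed the gene filter through FA 2 and SR 1. These medians thus do not compare the cell types on equal terms. Clec4f, which defines Kupffer cells, had 205 and 192 CPM in SR 1 and 2, and 137 and 211 CPM in FA 1 and 2, while Timd4 was at 0 in all libraries. The 14 stellate cell and fibroblast markers, with a median change of -0.00013, summed to 1168 and 952 CPM in SR 1 and 2, and to 969 and 1120 CPM in FA 1 and 2, 4 of 9 tested members having FA 2 and SR 1 highest, with Col1a2 at 0 throughout. Of 6 red cell genes listed, only the 3 globin genes Hba1, Hba2 and Hbb were tested, all with negative changes and a median of -0.51. The 6 summed to 1122 and 648 CPM in SR 1 and 2, and to 830 and 1705 CPM in FA 1 and 2. FA 2 and SR 1 lay above the other libraries in all 3 tested members. Under the filter, Hbb-b1 had that order, and Alas2 and Slc4a1 did not. None of these genes was called, and their part in the endothelial marker differences was not tested.

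The 10 hepatocyte markers, with a median log2 change of 0.01 between the groups, did not share the order, with 0 of 10 having FA 2 and SR 1 highest and median differences of -0.16 for FA 2 over FA 1 and 0.03 for SR 1 over SR 2. The remaining lists were near the detection limit. Smooth muscle markers summed to 16.2 and 10 counts in SR 1 and 2 and to 3.6 and 13.4 counts in FA 1 and 2, bile duct markers to 13.9 and 12 counts in SR 1 and 2 and to 17.6 and 15.5 counts in FA 1 and 2, and lymphocyte markers to 15.2 and 19 counts in SR 1 and 2 and to 11.9 and 19.4 counts in FA 1 and 2. No smooth muscle or bile duct marker was tested, and of the lymphocyte markers only Ptprc, the pan-leukocyte phosphatase, was tested.

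**Figure D4:**
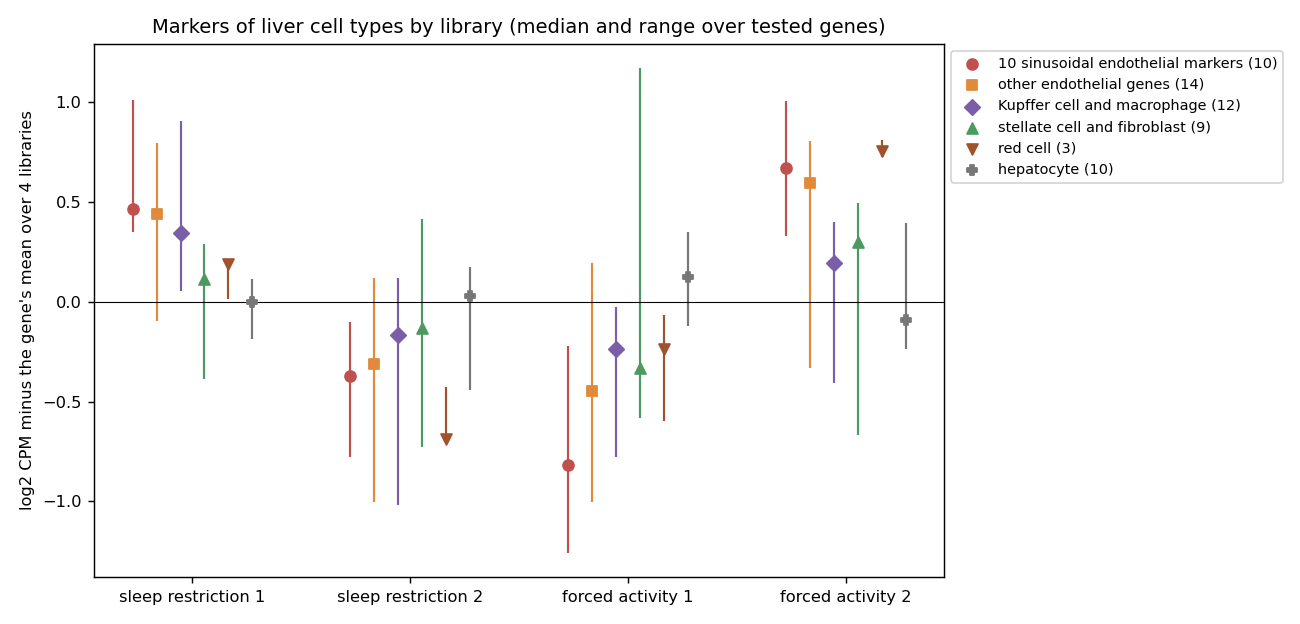
Medians (symbols) and ranges (lines) over the tested genes of each cell type list are plotted by library, as log2 CPM minus the mean of the gene over the 4 libraries. The 10 endothelial markers run from -0.82 in forced activity 1 to 0.67 in forced activity 2, with 0.47 and -0.37 in sleep restriction 1 and 2, while the hepatocyte medians stay between -0.09 and 0.13.

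Signals that sinusoidal endothelium sends to hepatocytes were too low to test. Of 9 such genes only Hgf, which is made mainly by stellate cells, passed the filter, at 35.5 and 56.3 CPM in SR 1 and 2, and 26.2 and 53.7 CPM in FA 1 and 2, with a log2 change of 0.16 (SE 0.34). Bmp2 had 8.5 and 8 counts in SR 1 and 2, and 4 and 14.1 counts in FA 1 and 2, and Rspo3, which strengthens Wnt signals, had 5.3 and 7 counts in SR 1 and 2, and 3.6 and 5.5 counts in FA 1 and 2. Wnt2 and Wnt9b had at most 1 count in any library. Of the pericentral hepatocyte genes that such Wnt signals maintain 5 of 12 were tested, 2 with positive and 3 with negative log2 changes, with a median of -0.06 and none called. Cyp2e1 had 5277 and 4530 CPM in SR 1 and 2, and 5134 and 5116 CPM in FA 1 and 2, and Glul, glutamine synthetase, had 763 and 584 CPM in SR 1 and 2, and 781 and 485 CPM in FA 1 and 2, neither with the order of the endothelial markers. Cyp1a2 had 2174 and 1317 CPM in SR 1 and 2, and 1249 and 1324 CPM in FA 1 and 2. Its libraries ranked as for Stab2, but FA 2 was barely above SR 2 and SR 1 stood alone as high.

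The tested genes with profiles closest to the mean profile of the 10 markers were ranked by the root mean square difference of centred log2 CPM over 4 libraries, a description in which all genes share the same libraries. The 10 closest were Dnase1l3, Mrc1, Clec14a, Adgrf5, Krt79, Sdpr, Hbb, Pde2a, Flt1 and Tspan7, with differences from 0.050 to 0.22, against 0.048 to 0.36 for the markers themselves and a median of 0.66 over all tested genes. The markers' own differences are small partly because the mean profile was made from them, and the 10 closest were picked for small differences. The list of other endothelial genes held 5 of these 10, and 14 of the 4986 tested genes. Dnase1l3, Clec14a, Krt79 and Sdpr reached 10 counts in SR 1 and FA 2 only, so they passed the gene filter through those libraries. Nothing further is read from this ranking. Dnase1l3, a secreted nuclease, had 15.1 and 7 counts in SR 1 and 2, and 4.3 and 19 counts in FA 1 and 2. Mrc1, the mannose receptor of sinusoidal endothelium and macrophages, had 40.9 and 19 counts in SR 1 and 2, and 16.3 and 45.6 counts in FA 1 and 2. The beta-globin gene Hbb, with 155.6 and 99 counts in SR 1 and 2, and 84.3 and 246.6 counts in FA 1 and 2, is a red cell gene that ranked among them.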

How the data were processed

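Rat liver messenger RNA was measured in 4 libraries, 2 per group, grouped by their titles. Estimated counts for Ensembl genes were deposited as 1 table. The submitters' processing notes name CASAVA, STAR 2.4.1d and the build rn6, without saying what each was used for, and no source used here names the counting software. The deposited counts are multiples of 0.1 with near-equal column totals, and SR 2 holds whole numbers at 32544 of 32545 genes. From these values and words in the table's own name, the columns appear to be averages of random draws to a common depth, which lowers the counting noise of the deeper libraries, and to count the sense strand. All 37 mitochondrial genes are at 0. The 16 rows without a symbol held 0.0437% to 0.0563% of each total, and 0 columns were left unused.

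After rounding, the test was that of edgeR 4.0.16 under R 4.3.3 (TMM, filterByExpr with a minimum count of 10, robust quasi-likelihood, prior count 2, Benjamini-Hochberg adjustment over all tested genes). It had been run on simulated counts with a fixed dispersion and no averaging of draws. That run does not show how the test behaves at the spread seen in the markers. TMM factors were 1.00 and 0.991 for SR 1 and 2, and 0.975 and 1.03 for FA 1 and 2. CPM use the unrounded counts. SE is the shrunken change over the root of its F statistic. DESeq2 1.42.0, limma 3.58.1 and the other settings given at the end were alternatives. Genes named are the 10 markers, up to 3 members of a list by mean CPM, and the 10 nearest profiles, with others said to be chosen after their values were seen or named to bear on a marker. The markers, lists and alternatives were chosen with earlier results of these data known.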

Additional observations from a re-analysis of the deposited data

How the results depend on the processing

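Under every alternative that was run, 0 of the 10 markers were called, and the smallest adjusted p of any marker was 0.648. The number of genes called over the whole table was 1 in the main test, 2 with DESeq2, 5 without a gene filter, and 0 under each of limma-voom, a filter of 1 CPM in 2 libraries, and no robust estimation. With 1 library left out it ran from 0 to 2, a lone library being assumed to vary like the other group. The markers' median log2 change ran from -0.51 to 0.97 with 1 library left out, the highest being 0.97 without FA 2, and from -0.02 to 0.19 in all other settings. Of 140 marker values compared over all alternatives 31 changed sign, and 8 moved by 1 SD or more, 7 of them without FA 2 and 1 without SR 1. That SD differed between markers. Eng counted as moved without SR 1, from -0.03 to -0.71, while Stab2 without FA 2, from 0.32 to 1.31, did not. The cause of these changes was not tested. The count of markers at least 2-fold apart in both groups stayed at 4, and of markers with groups that do not overlap at 0, under DESeq2 size factors, upper-quartile factors and no scaling factors. No label ties same-numbered libraries to a shared animal or day. Their deviations from the group means correlated at 0.207 over 4986 genes, and 2 pairs are too few to treat the numbers as a pairing. With a replicate block, 5 genes and 0 markers were called, and the marker median was 0.01. Counts of 3.2 to 39.7 in FA 1 limit the precision of every marker.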

Other observations

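Besides the 4 markers, 11 of the 15 tested genes that were at least 2-fold higher in FA 2 than in FA 1 and at least 2-fold higher in SR 1 than in SR 2 are not on the marker list. Of these, 5 are on the list of other endothelial genes (Dnase1l3, Oit3, Aqp1, Mrc1 and Clec14a), Jam2 is an endothelial junction gene, and 5 are on no list: Fam167b, Zfp384, Krt79, Anxa5 and Slc25a25, all chosen after their values were seen. The list of other endothelial genes held 14 of the 4986 tested genes. Dnase1l3, Oit3, Clec14a, Jam2, Krt79, Fam167b and Anxa5 had under 10 counts in both SR 2 and FA 1. They thus passed the gene filter through SR 1 and FA 2, and the filter partly sets these counts of genes. Slc25a25, a mitochondrial ATP-Mg/phosphate carrier, had 39.7 and 19 counts in SR 1 and 2, and 27 and 82.3 counts in FA 1 and 2. Zfp384, a zinc finger protein, had 16.6 and 6 counts in SR 1 and 2, and 10.3 and 24.3 counts in FA 1 and 2. Krt79, a keratin, had 15.3 and 6 counts in SR 1 and 2, and 6.1 and 20.2 counts in FA 1 and 2. No comparison between the groups rests on these values.

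Among the other endothelial genes Gata4 and Aqp1, also chosen after their values were seen, had the lowest log2 changes of sleep restriction over forced activity, and neither passed the adjustment. Gata4, a transcription factor of sinusoidal endothelium, had 26.4 and 15.5 CPM in SR 1 and 2, and 33.1 and 46.6 CPM in FA 1 and 2, so that its groups did not overlap, and edgeR gave a log2 change of -0.79 (SE 0.31, adjusted p 0.999). Aqp1, a water channel of vessels and bile ducts, had 38.6 and 17.5 CPM in SR 1 and 2, and 29.3 and 61.5 CPM in FA 1 and 2, with a log2 change of -0.62 (SE 0.40) and overlapping groups.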
